A study of Mus musculus with 4 samples.

Results

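Markers of the epicardium and mesothelium were examined in hearts of Klf9 knockout mice, in which a Krüppel-like zinc finger transcription factor is missing. The set was given as 10 gene symbols (Wt1, Tbx18, Tcf21, Bnc1, Upk3b, Upk1b, Msln, Lrrn4, Aldh1a2 and Krt19), and all 10 were found among the 17485 genes of the deposited table. Total RNA of hearts had been sequenced in 2 libraries from Klf9 KO mice and 2 from WT mice, all labelled male and taken at 8 weeks of age. The labels did not give the strain, the Klf9 allele, whether the deletion is limited to a cell type, or whether replicates are different animals. A limma p-value here therefore rests only on how far the 2 libraries of a group lie apart, in that gene and across the tested genes. That spread could be technical. The authors' Poisson p-values use no spread between libraries of a group. The study was made to follow the influence of Klf9 on cardiac mitochondria, and Klf9 KO against WT is its single comparison.

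The epicardium is the mesothelial sheet that covers the heart. In the embryo its cells express the transcription factors Wt1, Tbx18 and Tcf21 and the retinoic acid synthesising enzyme Aldh1a2, and some of them enter the heart wall, where they give rise to fibroblasts and mural cells of vessels. In the adult the sheet is thin and largely quiet, and it is recognised by proteins shared with the mesothelium of other body cavities, such as mesothelin and uroplakins. Tcf21 is also kept by resident fibroblasts, Tbx18 by pericytes and smooth muscle, and Wt1 appears in some endothelial cells, so that these 3 genes are less specific in the adult heart than the surface proteins.

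The deposited table held log2 ratios between libraries. From these ratios a value per library was recovered in steps of 0.01. Its unit was not given. The values summed to 409359 and 418974 in the KO libraries and to 426032 and 489534 in the WT libraries. No source used here gives the depth of the libraries. Klf9 stood at 2.66 and 1.99 in the KO libraries, against 74.88 and 58.78 in the WT libraries, and limma gave a log2 fold change of -4.35 ± 0.20 (SE) at an adjusted p of 3.46e-06, which matches the labels. Against the label of male sex, the Y-linked gene Kdm5d stood at 4.01 in KO replicate 1 and at 0.01, the smallest step, in KO replicate 2, against 3.42 and 3.97 in the WT libraries. For each tested marker the fold change without KO replicate 2 is therefore given as well. Of 8 cardiomyocyte genes 7 did not pass the test and 1 fell, where 27.7% of all tested genes were higher and 17.0% lower. The 8 genes summed to 32400 and 30500 in the KO libraries, against 27700 and 32400 in the WT libraries.

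All 10 markers were higher in both KO libraries than in both WT libraries. In the authors' deposited table, all 40 pairwise log2 ratios of the markers (4 per gene) were above 0. The same held for 43.6% of the 16152 genes of that table with 4 ratios. In 9 of the 10 markers every one of the 4 deposited ratios was at least 1, a doubling, against 13.5% of all such genes. The exception was Wt1, with a lowest ratio of 0.65 between KO replicate 1 and WT replicate 1. The markers were chosen with earlier results of these data known, so these counts describe the set and test nothing. RNA of heart tissue cannot tell more cells of a type from more RNA per cell. The same KO libraries stood higher in cell cycle genes. All 6 of a list chosen with earlier results of these data known passed, where 27.7% of all tested genes were higher. Mki67, for example, stood at 16.99 and 20.77 in the KO, against 1.03 and 1.16 in WT. The KO libraries also stood higher in Tnni1, the troponin I of the immature heart (655.92 and 993.63 in the KO, against 0.16 and 0.01 in WT). The part of growth or of the stage of the hearts in the marker values was not tested.

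**Figure D1:**
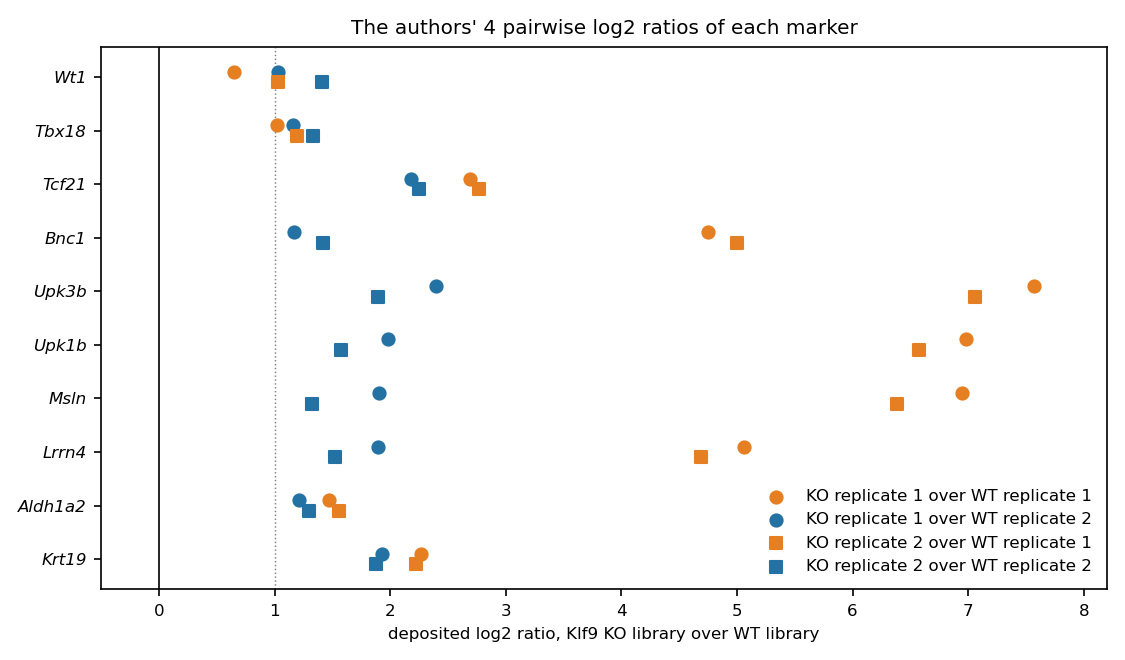
The authors' deposited log2 ratios of a Klf9 KO library over a WT library (x axis) for each marker (y axis), with circles for KO replicate 1, squares for KO replicate 2, orange for ratios over WT replicate 1 and blue for ratios over WT replicate 2. All 40 points lie above 0, and for Bnc1, Upk3b, Upk1b, Msln and Lrrn4 the ratios over WT replicate 1 lie between 4.69 and 7.57, apart from those over WT replicate 2, which lie between 1.17 and 2.40.

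For a test across genes, limma was applied to log2(value + 1), with Benjamini-Hochberg adjustment. It took the 12135 genes that reached a value of 1 in 2 or more libraries. On this scale 8 markers were tested and all 8 were higher in the KO at adjusted p below 0.05, where 27.7% of all tested genes were higher and 17.0% lower. That count is no support by itself, as the markers were chosen with earlier results of these data known. In addition, 4 of the 8 (Upk3b, Msln, Lrrn4 and Krt19) reached the filter through the KO libraries. The other 4 (Wt1, Tbx18, Tcf21 and Aldh1a2) had values of at least 1 in all libraries. Upk1b and Bnc1 did not reach the filter. Fold changes of the tested markers ran from 0.76 to 2.21 on the log2 scale, and the median of all tested genes was 0.12.

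Among the 3 tested transcription factors the largest limma fold change was that of Tcf21, a basic helix-loop-helix factor needed to form cardiac fibroblasts. Tcf21 stood at 15.41 and 16.19 in the KO libraries, against 2.38 and 3.40 in the WT libraries. The groups were far apart, with the lower KO library at 4.53 times the higher WT library. Its log2 fold change was 2.12 ± 0.19 (SE, n = 2 per group; limma adjusted p = 5.52e-05) and lay between 1.93 and 2.31 when each library was left out in turn, with 2.09 without KO replicate 2. The annotated bounds of Tcf21 overlap those of Gm10824, and how reads of overlapping genes were divided was not given.

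Tbx18, a T-box repressor of the embryonic epicardium and of pericytes, stood at 2.66 and 2.99 in the KO libraries, against 1.31 and 1.19 in the WT libraries. Libraries of a group lay close together and the groups did not overlap. The log2 fold change was 0.76 ± 0.16 (SE; limma adjusted p = 0.0051), and it was 0.70 (adjusted p = 0.0431) without KO replicate 2.

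Wt1, a zinc finger factor of the epicardium, kidney and gonad, stood at 7.55 and 9.82 in the KO libraries, against 4.82 and 3.69 in the WT libraries. The groups did not overlap, but the lower KO library was only 1.57 times the higher WT library, the narrowest gap of the 10 markers. The log2 fold change was 0.88 ± 0.20 (SE; limma adjusted p = 0.00658). Without KO replicate 2, the library whose Y-linked genes go against its label, it was 0.71 ± 0.32 (SE) and did not pass (limma adjusted p = 0.0931). That fit has 1 KO library, and over all genes it called 1859 higher, against 3367 with all libraries.

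Bnc1, a zinc finger factor of squamous and mesothelial cells, was the marker with the lowest values. It stood at 0.27 and 0.32 in the KO libraries, against 0.01 and 0.12 in WT replicates 1 and 2. The WT replicate 1 value is the smallest step, of which it cannot be said whether it was 0. In the authors' deposited table the Poisson p-value, which takes counting as the only error, was 0.105 for KO replicate 1 against WT replicate 2 and 0.0426 for KO replicate 2 against WT replicate 2.

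All 4 surface or secreted proteins of the set were higher in the KO, and all 4 differed widely between the WT libraries. Upk3b, a uroplakin that marks mesothelium outside the bladder, stood at 7.58 and 5.33 in the KO libraries, against 0.04 and 1.44 in WT replicates 1 and 2. WT replicate 2 thus lay at 36.0 times WT replicate 1, and the KO mean at 4.48 times WT replicate 2. The ratio of 36.0 is uncertain, as 0.04 in WT replicate 1 is near the smallest step. The log2 fold change was 2.21 ± 0.35 (SE; limma adjusted p = 0.00118). It was 2.43 without KO replicate 2, 1.59 without WT replicate 1 and 2.83 without WT replicate 2.

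Msln encodes mesothelin, a glycoprotein anchored on the surface of mesothelial cells. Its values were 4.95 and 3.32 in the KO libraries, against 0.04 and 1.33 in WT replicates 1 and 2. As plain ratios, the WT libraries lay further apart (33.2) than the KO mean and WT replicate 2 (3.11). The value of 0.04 in WT replicate 1 is near the smallest step, so that the ratio of 33.2 is uncertain. In log2(value + 1) the gap between the WT libraries was 1.16, beside 1.12 for the KO over WT replicate 2. The log2 fold change was 1.70 ± 0.34 (SE; limma adjusted p = 0.00367), and it was 1.93 without KO replicate 2, 1.12 without WT replicate 1 and 2.29 without WT replicate 2. With a pseudocount of 0.1 in place of 1, which gives low values more weight, neither Upk3b (3.80 ± 1.27, SE; adjusted p = 0.0848) nor Msln (3.22 ± 1.16, SE; adjusted p = 0.0863) passed the limma test.

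Lrrn4, a leucine-rich repeat membrane protein, stood at 1.67 and 1.29 in the KO libraries, against 0.05 and 0.45 in WT replicates 1 and 2. Its log2 fold change was 1.0 ± 0.19 (SE; limma adjusted p = 0.00271), 1.11 without KO replicate 2, and 2.45 ± 0.56 (SE; adjusted p = 0.00824) with a pseudocount of 0.1. Its annotated bounds overlap those of Crls1. Upk1b, a tetraspanin that pairs with uroplakin 3a in the bladder, stood at 1.26 and 0.95 in the KO libraries, against 0.01 and 0.32 in WT replicates 1 and 2. As for Bnc1, the value of Upk1b in WT replicate 1 is the smallest step. In the authors' deposited table Upk1b was at 2.97 to 3.94 times WT replicate 2 in the KO libraries, with Poisson p-values of 0.00138 and 0.0178. When the filter on low values was dropped, Upk1b (0.86, adjusted p = 0.0189) and Bnc1 (0.28, adjusted p = 0.0356) passed limma, as did all 10 markers and 18.4% of all genes in that direction.

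**Figure D2:**
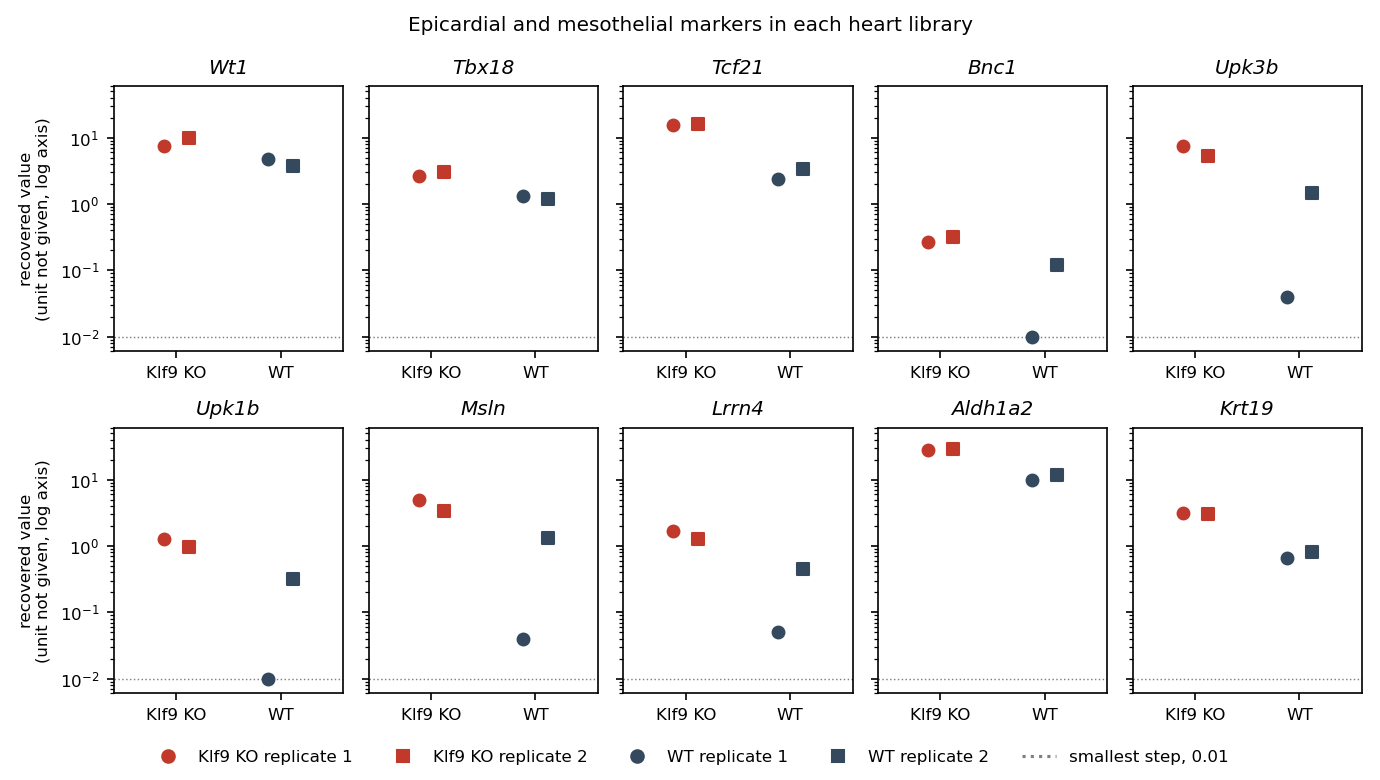
Recovered value of each marker (y axis, log scale, unit not given) in the Klf9 KO libraries (red) and the WT libraries (blue-grey), with circles for replicate 1, squares for replicate 2 and a dotted line at the smallest step of 0.01. For Wt1, Tbx18, Tcf21, Aldh1a2 and Krt19 the WT libraries lie close together, whereas for Bnc1, Upk3b, Upk1b, Msln and Lrrn4 WT replicate 1 lies at 0.05 or less.

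The difference between the WT libraries was a property of some markers and not of others. On the log2(value + 1) scale Upk3b was 1.23 and Msln 1.16 higher in WT replicate 2 than in WT replicate 1. Only 0.379% and 0.61% of the 12135 tested genes lay at least as far apart between the WT libraries in either direction, and the median gap was 0.26. For Wt1, Tbx18, Tcf21, Aldh1a2 and Krt19, between 31.5% and 84.3% of tested genes lay at least as far apart. For Lrrn4, whose WT libraries differed by a ratio of 9.0 before the pseudocount was added, the share was 22.2%.

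Upk3b, Upk1b, Msln and Lrrn4 shared the order of libraries from low to high, WT replicate 1, WT replicate 2, KO replicate 2 and KO replicate 1, and so did Krt19, with gaps between replicates that were small. That order held for 5.28% of the 16152 genes with 4 ratios. In the other 5 markers, Wt1, Tbx18, Tcf21, Aldh1a2 and Bnc1, KO replicate 2 was the highest library. A count made after these values were seen asked which genes of the whole table had WT replicate 2 at 8 or more times WT replicate 1 and both KO libraries at 2 or more times WT replicate 2. It found 30 of 17485 genes, among them the 5 markers Upk3b, Upk1b, Msln, Lrrn4 and Bnc1. With a value of at least 0.2 in WT replicate 2, 6 genes remained, of which 4 were Upk3b, Upk1b, Msln and Lrrn4. These criteria were set from the markers' own values, so the counts describe the table and test nothing.

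**Figure D3:**
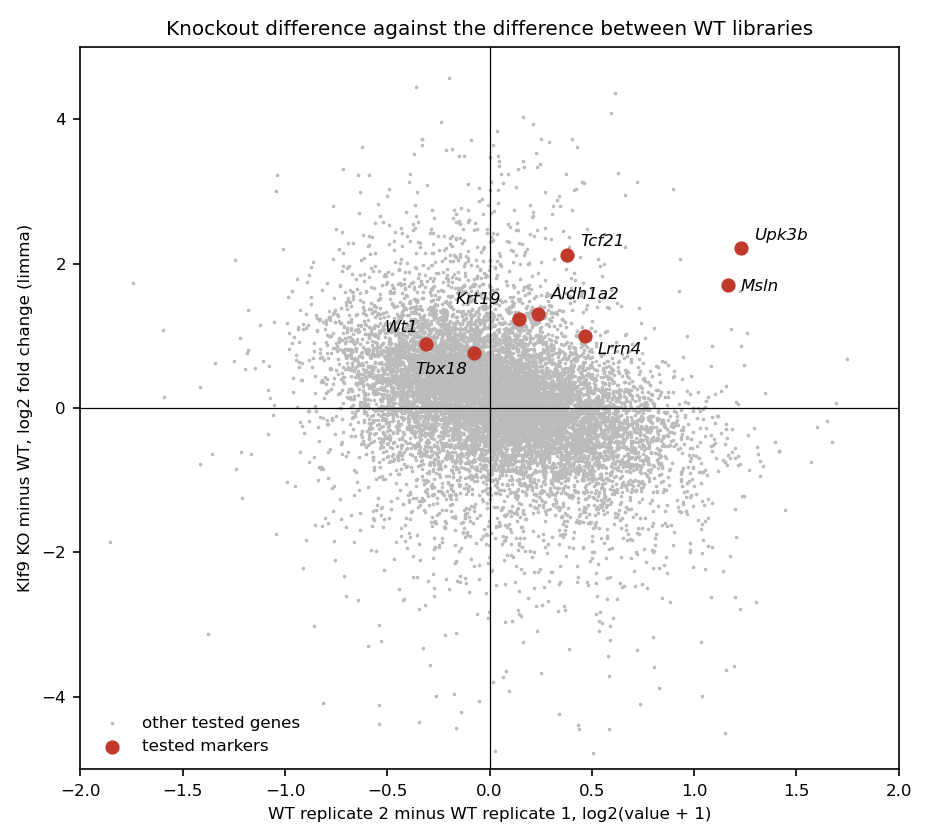
Log2 fold change of Klf9 KO over WT from limma (y axis) against WT replicate 2 minus WT replicate 1 in log2(value + 1) (x axis) for the tested genes, with the 8 tested markers in red and 13 genes outside the axes. Both axes use the WT libraries. Upk3b and Msln lie to the right, with a difference between WT libraries of 1.23 and 1.16, and the other 6 markers lie between -0.31 and 0.47.

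Aldh1a2 encodes the retinaldehyde dehydrogenase that makes retinoic acid in the embryonic epicardium. It stood at 27.50 and 29.38 in the KO libraries, against 9.96 and 11.91 in the WT libraries, with replicates close together in both groups. The log2 fold change was 1.31 ± 0.18 (SE; limma adjusted p = 0.000601) and lay between 1.19 and 1.42 when each library was left out in turn, with 1.26 without KO replicate 2. Krt19, an intermediate filament keratin of simple epithelia and mesothelium, stood at 3.13 and 3.02 in the KO libraries, against 0.65 and 0.82 in the WT libraries. The groups of Krt19 did not overlap, and its log2 fold change was 1.23 ± 0.16 (SE; limma adjusted p = 0.000405). It was 1.25 without KO replicate 2 and 1.93 with a pseudocount of 0.1.

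Other genes of the retinoic acid pathway moved in both directions. Of 18 listed genes 17 were in the table and 11 were tested, of which 2 rose, 3 fell and 6 did not pass. Beside these counts, 27.7% of all tested genes were higher and 17.0% lower. Rara, a retinoic acid receptor, was at 15.66 and 17.51 in the KO libraries, against 8.41 and 6.47 in the WT libraries. Rxrg, a retinoid X receptor of muscle, was at 13.74 and 8.97 in the KO libraries, against 41.97 and 46.49 in the WT libraries. Dhrs3, which turns retinaldehyde back to retinol, had a log2 fold change of -1.23 ± 0.18 (SE). The third that fell, Aldh1a1, a close relative of Aldh1a2 that also makes retinoic acid, was at 2.71 and 2.06 in the KO libraries, against 7.76 and 17.61 in the WT libraries.

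A further list of 20 genes known from mesothelium or epicardium had members in both directions. All 20 were in the table and 10 were tested. Of these 4 rose and 2 fell, while 4 were not called, where 27.7% of all tested genes were higher and 17.0% lower. The median log2 fold change of the list was 0.21, beside 0.12 over all tested genes. Krt18, a keratin of simple epithelia, was at 3.97 and 6.42 in the KO libraries, against 0.24 and 0.41 in the WT libraries (2.20 ± 0.21, SE; limma adjusted p = 9.28e-05). Ezr, the membrane linker ezrin, had a log2 fold change of 1.84 ± 0.19 (SE), and Sema3d and Gpm6a also rose. Efemp1, an extracellular matrix protein, was at 2.58 and 1.77 in the KO libraries, against 4.54 and 10.45 in the WT libraries, and the junction protein Cldn15 had a log2 fold change of -1.06 ± 0.21 (SE). Among the genes below the filter, Calb2, the mesothelial calcium binder calretinin, was at 0.24 and 0.23 in the KO libraries and at the smallest step in both WT libraries. Muc16, which binds mesothelin, was at 0.12 and 0.09 in the KO libraries, against 0.01 and 0.04 in the WT libraries. Krt7, Krt8 and Prr15, also below the filter, were higher in both KO libraries than in both WT libraries. Rspo1, Slc39a8, Gata5 and Sbspon were not, and Cdh1 stood at the smallest step in all libraries. In this list 11 of 20 genes were higher in WT replicate 2 than in WT replicate 1, and the median difference was 0.04 in log2(value + 1). Only 10 of the 20 reached the filter, and the pseudocount flattens gaps between low values. Whether its low genes share the wide gap between WT libraries cannot be judged from that median. In WT replicates 1 and 2, Krt7 was at 0.11 and 0.07, Krt8 at 0.28 and 0.25 and Gata5 at 0.16 and 0.12. Prr15 was at 0.37 and 0.49, Slc39a8 at 0.54 and 1.21 and Rspo1 at 0.15 and 0.47. None of these came near the WT ratio of Upk3b or Msln. Muc16 and Sbspon were at the smallest step in WT replicate 1 and at 0.04 in WT replicate 2.

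Genes of the transition by which epicardial cells enter the heart wall, and of its signals, were all tested. Of 20 genes 6 rose and 1 fell, while 13 were not called, where 27.7% of all tested genes were higher and 17.0% lower, so that the number that rose is near the background. The median log2 fold change was 0.32. Vim, the filament protein vimentin, was at 383.74 and 514.17 in the KO libraries, against 154.73 and 160.11 in the WT libraries, and Fgfr2, a fibroblast growth factor receptor, at 1.17 and 1.30 against 0.14 and 0.07 in WT. The chemokine Cxcl12 was at 49.48 and 38.95 in the KO libraries, against 129.18 and 81.11 in the WT libraries (-1.20 ± 0.25, SE; limma adjusted p = 0.00513). Fgf9, a growth factor of the embryonic epicardium, had a log2 fold change of -0.12 and did not pass. Of 12 relatives of the markers 11 were in the table and 4 were tested, of which 3 rose (Tbx20, Tcf15 and Upk1a) and Lrrn2 did not pass. Upk1a, the uroplakin closest to Upk1b, was at 1.14 and 1.45 in the KO libraries, against 0.90 in WT replicate 1 and 0.17 in WT replicate 2, the reverse of the order of Upk1b in the WT libraries.

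**Figure D4:**
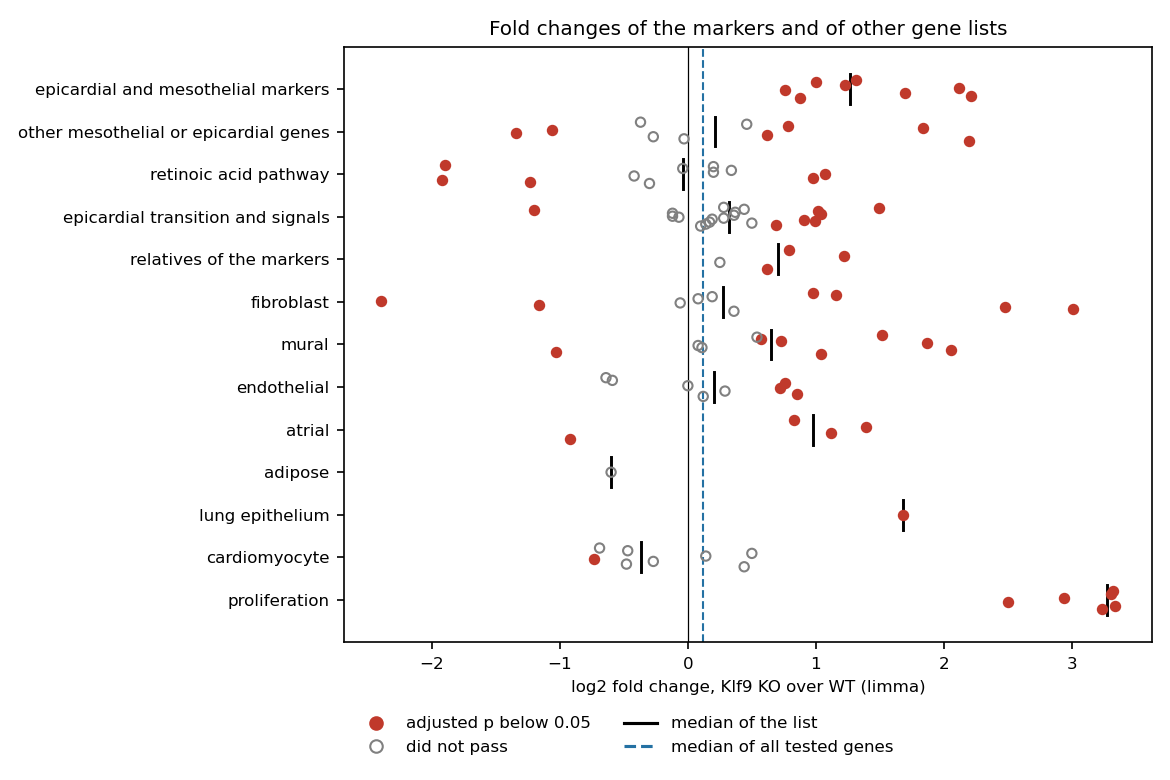
Log2 fold change of Klf9 KO over WT (x axis) for each tested gene of the marker set and of 12 other lists (y axis), with filled points past adjusted p below 0.05, open points for genes that did not pass, a black bar at the median of each list and a dashed line at 0.12, the median of all tested genes. All 8 tested markers lie to the right of the line, and the lists of mesothelial, retinoic acid and fibroblast genes have members on both sides.

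Lists of other cell types that share these genes or lie beside them had members that changed, and their part in the marker values was not tested. Their counts stand beside the 27.7% of all tested genes that were higher and the 17.0% that were lower. Of 10 fibroblast markers 4 rose and 2 fell, with Col1a1 at 342.04 and 422.06 in the KO libraries, against 67.06 and 31.97 in WT, and Gsn at 69.17 and 72.15, against 418.57 and 340.00 in WT. The fibroblast sum was 940 and 1020 in the KO libraries, against 847 and 946 in the WT libraries. It joins abundant genes that rose (Col1a1 and Col1a2) with abundant genes that fell (Gsn and Dcn), and so does not measure fibroblast content. Of 10 mural markers 6 rose and 1 fell, while 3 were not called. Cspg4 was at 18.35 and 22.58 in the KO libraries, against 5.39 and 3.13 in WT, and the smooth muscle actin Acta2 at 254.55 and 357.97, against 89.69 and 74.62 in WT. Rgs5, an abundant pericyte gene, fell, at 93.30 and 74.26 in the KO libraries, against 134.76 and 215.87 in WT (-1.03 ± 0.26, SE; limma adjusted p = 0.0126). The mural sum was 551 and 632 in the KO libraries, against 371 and 418 in WT. Without Acta2, which was left out after its values were seen, it was 296 and 274 in the KO libraries, against 281 and 343 in WT. That remainder joins the abundant Rgs5, which fell, with Cspg4 and other genes that rose. Neither mural sum therefore measures mural cell content. Of 8 endothelial markers 3 rose and 5 did not pass, with a sum of 547 and 562 in the KO libraries, against 433 and 424 in WT.

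Atrial, fat and lung markers bear on how the hearts were dissected, which the labels did not give. Of 4 tested atrial markers 3 rose and 1, Nppa, fell, where 27.7% of all tested genes were higher and 17.0% lower. The atrial light chain Myl7 was at 1.31 and 2.18 in the KO libraries, against 0.30 and 0.20 in WT, and sarcolipin (Sln) at 0.14 and 0.13, against the smallest step in both WT libraries. The atrial sum was 112 and 156 in the KO libraries, against 240 and 203 in WT, most of it Nppa. The fat cell markers Plin1, Cidec and Cfd did not exceed 0.09 in any library, whereas Fabp4, also an endothelial gene, was at 689.70 and 799.87 in the KO libraries, against 748.81 and 1703.98 in WT. Of 2 lung markers in the table, Ager was at 3.07 and 2.64 in the KO libraries, against 0.24 and 0.16 in WT, and Sftpb at 0.01 and 0.25, against 0.32 and 0.01 in WT. Of 6 atrial, 4 fat and 2 lung genes in the table, 1, 1 and 0 were higher in WT replicate 2 than in WT replicate 1. Several of these genes stood at or near the smallest step in both WT libraries. The counts therefore cannot show whether the dissection of the WT hearts differed.

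Promoters were taken for the markers that moved together, from 250 bases before to 50 after the annotated start in RefSeq (build GRCm38.p6, which need not be the build of the study), and a sequence was found for 6 of the 10. They were searched on both strands for CACCC and GGGCGG, boxes bound by Krüppel-like and SP factors, CATTCC, the core bound by TEAD factors, and GCGTGGG, a core bound by EGR factors and Wt1. Shown are a pair of surface genes that were low in WT replicate 1 (Upk3b, at chr5:136038246-136038545 (plus strand), and Lrrn4, at chr2:132880813-132881112 (minus strand)) and a pair with close WT libraries (Tcf21, at chr10:22820094-22820393 (minus strand), and Aldh1a2, at chr9:71215539-71215838 (plus strand)), written 5′ to 3′ along each gene, with the matches in capitals.
Upk3b: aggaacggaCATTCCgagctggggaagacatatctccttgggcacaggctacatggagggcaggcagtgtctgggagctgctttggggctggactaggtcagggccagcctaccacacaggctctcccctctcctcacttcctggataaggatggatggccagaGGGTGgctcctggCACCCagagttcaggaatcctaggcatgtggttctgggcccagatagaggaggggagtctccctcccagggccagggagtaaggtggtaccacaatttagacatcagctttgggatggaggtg
Lrrn4: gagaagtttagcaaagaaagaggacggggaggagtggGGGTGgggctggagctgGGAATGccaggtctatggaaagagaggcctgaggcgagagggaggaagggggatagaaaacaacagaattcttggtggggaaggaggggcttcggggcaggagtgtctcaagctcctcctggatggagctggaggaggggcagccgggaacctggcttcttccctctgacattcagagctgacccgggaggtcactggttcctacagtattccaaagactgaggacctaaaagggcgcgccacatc
Tcf21: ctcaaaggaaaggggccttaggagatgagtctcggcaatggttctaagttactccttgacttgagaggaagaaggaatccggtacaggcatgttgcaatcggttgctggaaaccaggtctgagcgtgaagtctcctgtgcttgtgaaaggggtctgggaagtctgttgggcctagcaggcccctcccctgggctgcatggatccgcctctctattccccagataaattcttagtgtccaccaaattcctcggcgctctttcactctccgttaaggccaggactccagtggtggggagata
Aldh1a2: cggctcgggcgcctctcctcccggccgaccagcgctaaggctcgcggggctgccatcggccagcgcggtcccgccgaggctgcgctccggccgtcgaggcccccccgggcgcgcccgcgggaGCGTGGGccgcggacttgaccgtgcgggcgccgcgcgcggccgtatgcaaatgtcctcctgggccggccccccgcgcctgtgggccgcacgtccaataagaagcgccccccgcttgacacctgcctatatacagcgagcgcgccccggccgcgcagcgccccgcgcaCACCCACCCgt
CACCC was found in 5 of the 6 promoters, against 57.5% of 32851 promoters of the same length, and GGGCGG in 1 (Bnc1), against 35.7%. CATTCC was found in Upk3b and Lrrn4, 2 of the 6, against 14.7% of all promoters, and GCGTGGG in Aldh1a2 alone, against 5.04%. Tcf21 held none of the 4 motifs in this window. The matches overlapped by 1 base in Aldh1a2, where a pair of CACCC matches run into each other, and in no other of the 6 promoters. Matches of letters are a description and not a sign of binding.

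The fold changes of the markers kept their direction under every alternative tried for them. RLE scaling, which sets the median ratio between libraries to a common value, put the median of all tested genes at -0.01, against 0.12 without it, and left the tested markers between 0.67 (Tbx18) and 2.13 (Upk3b). Among 11830 genes with a mean of at least 1 that are no markers, Polr1e, Stbd1, Yeats2, Cfap20 and Gem lay nearest to the median profile of the 8 tested markers, at root mean square distances of 0.019 to 0.044 in log2(value + 1) over the 4 libraries. Polr1e, a subunit of RNA polymerase I, was at 11.19 and 11.02 in the KO libraries, against 3.54 and 4.48 in WT. With 4 libraries such likeness is easily reached.

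**Figure D5:**
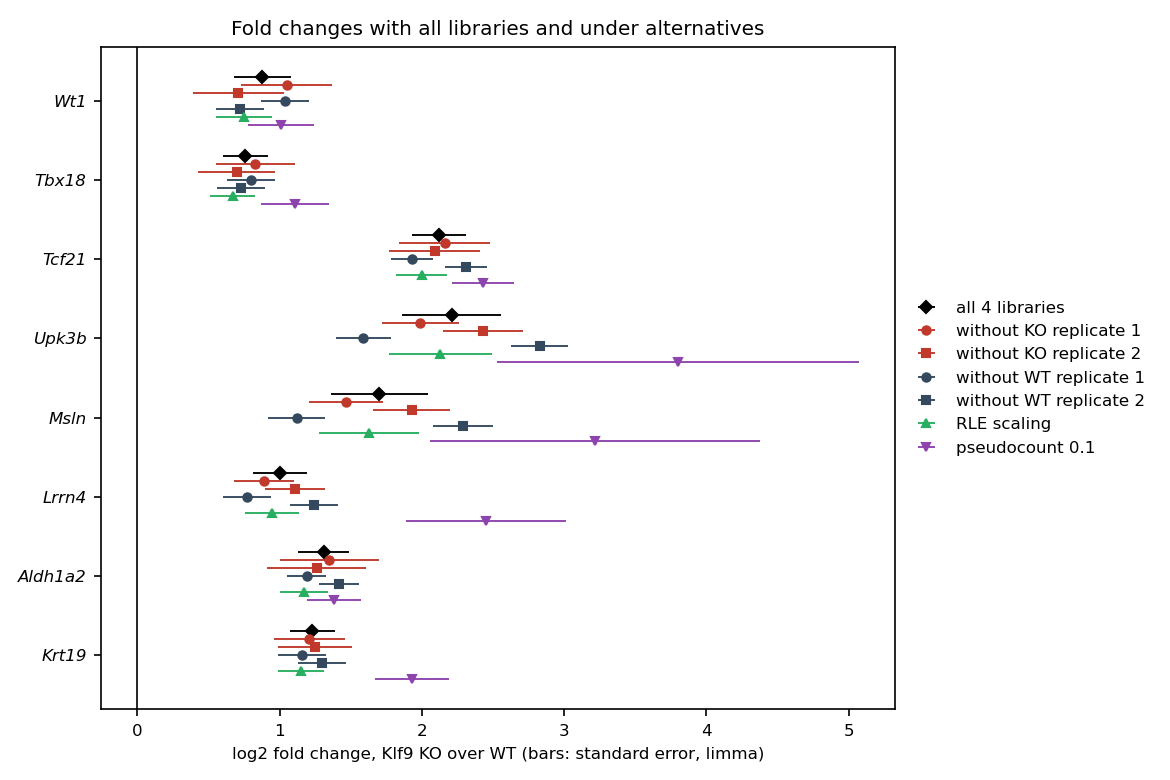
Log2 fold change of Klf9 KO over WT with its standard error from limma (x axis) for the 8 tested markers (y axis), with all 4 libraries (black), without each KO library (red) or WT library (blue-grey), after RLE scaling (green) and with a pseudocount of 0.1 (purple). Upk3b and Msln moved most, to 3.80 and 3.22 with the smaller pseudocount and to 1.59 and 1.12 without WT replicate 1. With the smaller pseudocount Lrrn4 also moved, to 2.45, and Krt19 to 1.93. Tcf21, Aldh1a2 and Krt19 moved less than Upk3b and Msln when a library was left out.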

How the data were processed

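Total RNA of hearts was sequenced in 2 Klf9 KO and 2 WT libraries. Sample titles gave the group and the replicate number. The authors deposited 1 table of comparisons. Per the file headers, it holds log2 ratios of each KO library over each WT library with Poisson p-values and false discovery rates, and a DEGseq log2 ratio with its p-value and q-value. Another column, the authors' deposited false discovery rate, reaches 1.0014 and was not used. The sources used here name no aligner, quantification tool, genome build or depth.

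The ratios were additive to within 9.95e-14 in 16152 genes, so that 4 numbers per gene underlie them. Continued fractions gave, for each gene, the smallest set of whole numbers with these ratios. They were read as values in steps of 0.01, with 0 replaced by 1 step and a missing ratio (1333 genes) taken as a pair at 1 step. The step is an assumption. A factor common to all 4 values of a gene is lost, which makes its level and its fold change after a pseudocount too low. In a simulation of 3000 genes that started from the recovered values, 92.7% came back exactly and 7.27% did not. Up to such a factor 100% came back. In a control on 2000 genes, whole numbers stayed below 10000000 in 100% with the deposited ratios, and in 0% once small random amounts had been added. The table holds no counts, so no count test was run.

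The test was limma 3.58.1 in R 4.3.3 (trend and robust) on log2(value + 1) of the 12135 genes reaching 1 in 2 or more libraries. Group was its only term, and Benjamini-Hochberg adjustment ran over all these genes. The script was tested on simulated data. Recovery and figures used Python 3.11.15, numpy 2.4.6, pandas 2.3.3 and matplotlib 3.10.9. There were 10 alternatives: scaling by RLE, scaling by the upper quartile, dropping the filter, a pseudocount of 0.1, trend without robust, each library left out, and the replicate number as a block. Members and the 12 other lists were chosen with earlier results of these data known. Named were all members, Klf9, of each other list up to 2 genes per direction with the lowest p (for cell type lists also the 2 with the highest mean), and the 5 genes nearest in profile. Named after their values were seen were Sema3d, Gpm6a, Aldh1a1, Upk1a, Lrrn2, Calb2, Muc16, Kdm5d, Tnni1, Sln, Plin1 and Cidec. The same holds for Krt7, Krt8, Prr15, Rspo1, Slc39a8, Gata5, Sbspon and Cdh1. Not every gene that the rule takes is reported here.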

Additional observations from a re-analysis of the deposited data

How the results depend on the processing

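With 4 libraries, 3367 genes were higher and 2061 lower in the KO. When each library was left out in turn, the higher genes numbered 1859 to 4327 and the lower genes 1100 to 3261, with the lowest counts without KO replicate 2 and the highest without WT replicate 1. RLE scaling gave 2632 higher and 2613 lower genes, so that the share of higher genes among the calls was 50.2% in place of 62.0%.

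All 8 tested markers passed under RLE scaling, upper quartile scaling, no filter, trend without robust and the replicate block. Wt1 did not pass without KO replicate 2 (0.71, adjusted p = 0.0931), and Upk3b (3.80, adjusted p = 0.0848) and Msln (3.22, adjusted p = 0.0863) did not pass with a pseudocount of 0.1, where their standard errors were 1.27 and 1.16. The cause was not tested. No marker was lower in the KO under any of the 10 alternatives. Fits without a library rest on 1 library in a group, which is assumed to vary like the others.

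The titles give both groups the replicate numbers 1 and 2, but no label says that a number marks a shared animal, litter or day, and deviations of same-numbered libraries correlated at -0.0355 over 12135 genes. With the replicate block the counts were 3514 higher and 2275 lower genes, and 8 markers were higher. Differences at the smallest steps, as for Bnc1 and Upk1b in WT replicate 1, cannot be resolved in these values.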
